A study of Mus musculus with 4 samples.

Results

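Genes for adhesion proteins of the immunoglobulin (Ig) and leucine-rich-repeat (LRR) superfamilies were compared between GFP+ cells of *Prdm13 GFP/GFP* and *Prdm13 GFP/+* neural tubes. They are the rows of the deposited expression table whose symbol belongs to one of 13 families: contactins, contactin-associated proteins, the L1 family, NCAM with ALCAM and DSCAM, SynCAMs, IgLONs, neurexins, neuroligins, LRRTMs, SLITRKs, FLRTs, LRRNs and LRFNs. Described are 57 of the 24421 genes listed. PRDM13 is a transcriptional repressor with a role in choosing between inhibitory and excitatory neurons in the dorsal neural tube, and the comparison asks which of these adhesion genes differ when it is lost.

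The Prdm13 GFP allele places GFP in an exon of *Prdm13* and disrupts the gene. Every library therefore carries at least 1 GFP allele, and the controls are heterozygous rather than wild type. Cells were sorted by GFP fluorescence from trypsin-dissociated neural tubes at E11.5, and RNA from 7 heterozygous and 9 homozygous embryos was combined by genotype into 1 pool each. Both pools gave 2 libraries of polyadenylated RNA, so an SD or a p-value covers library preparation and sequencing and leaves out differences between embryos.

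Ig proteins of the contactin, L1, NCAM, SynCAM and IgLON families sit on axons and growing neurites and bind one another or copies of themselves on neighbouring membranes. Neurexins are receptors of the presynaptic membrane. Across the cleft they bind neuroligins and LRRTMs directly, and delta glutamate receptors through secreted cerebellins. SLITRKs and LRFNs bind receptor phosphatases of the LAR type, and FLRTs bind latrophilins and UNC5 receptors, so LRR proteins of the receiving cell and receptors of the axon form pairs. Many of these genes are first switched on when young neurons extend axons, before synapses form.

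Levels are RPKM, reads scaled to exon length and library size. Reads recovered from these values came to 12413037 and 19737166 in the GFP/+ libraries and to 17568922 and 14859816 in the GFP/GFP libraries. A gene was tested if its mean RPKM was at least 1 in either genotype, and was called at an adjusted p under 0.05 (limma, Benjamini-Hochberg over all 12046 genes tested) with a fold of at least 1.5, which is 0.585 on the log2 scale. Fold changes are GFP/GFP minus GFP/+ on log2(RPKM + 0.1), a scale that understates the change of low genes.

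The sorted cells had the features of the dorsal lineage and of the mutation. *Prdm13* itself was at 114 and 127 RPKM in the GFP/+ libraries and at 310 and 325 in the GFP/GFP libraries, a value that does not tell transcripts of the GFP allele from intact ones. The inhibitory markers *Pax2* (106 and 119 against 17.7 and 18.6 RPKM) and *Gad1* (28.0 and 26.3 against 5.73 and 6.16) fell, and the excitatory markers *Tlx3* (4.63 and 5.63 against 86.2 and 94.1) and *Slc17a6* (3.30 and 3.80 against 15.1 and 14.1) rose. All 8 inhibitory markers listed were called lower, their summed RPKM 523 to 561 in GFP/+ and 99.5 to 106 in GFP/GFP. All 7 excitatory markers were called higher, their sums 30.4 to 33.3 and 195 to 201. Except for *Prrxl1*, the authors had already reported the markers of both lists as changed in these same libraries. Their calls check the labels and are not independent evidence. Of 10 progenitor genes 0 were called higher by limma (5 had an unadjusted p under 0.05) and 1 lower (*Sox1*), while 4 were higher and 3 lower by the adjusted p alone, and their summed RPKM was 2218 to 2237 in GFP/+ and 2232 to 2315 in GFP/GFP. Of 13 pan-neuronal genes 4 were called higher (*Nefl*, *Nefm*, *Gap43*, *Stmn2*) and 1 lower (*Snap25*), while 7 were higher and 2 lower by the adjusted p alone. The summed RPKM of the 13 was 2006 to 2065 in GFP/+ and 2543 to 2655 in GFP/GFP. Of 10 G2/M genes 0 were called by limma (9 had an unadjusted p under 0.05, all lower). By the adjusted p alone 6 of the 10 were lower, and all 10 had GFP/GFP below GFP/+. Their summed RPKM was 567 to 586 in GFP/+ and 448 to 455 in GFP/GFP. None of the 6 motor neuron and 4 microglia markers reached the filter; of 6 endothelial, 6 mesenchymal and 6 erythroid markers 1, 1 and 3 were tested and 0 were called (0 at an unadjusted p under 0.05), and *Hba-a1* was listed at 0 in every library. None of 6 dorsal root ganglion markers reached the filter (summed RPKM 1.78 to 2.12 and 1.90 to 2.35). Of 6 neural crest and glial markers 2 were tested (*Foxd3* called lower). The summed RPKM of the 6 was 12.2 to 15.3 and 7.05 to 7.35, most of it *Foxd3* (10.12 and 12.81 against 4.199 and 4.252). Of 4 sympathoadrenal markers 1 was tested (*Th*, called higher). The summed RPKM of the 4 was 4.56 to 4.61 and 7.57 to 8.16, nearly all of it *Th* (4.475 and 4.504 against 7.981 and 7.282). In bulk samples fewer cells of a type and less RNA per cell cannot be told apart, and the part of these shifts in the results on adhesion genes was not tested.

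Of the 57 adhesion genes 36 were tested. In GFP/GFP cells 3 were called higher (*Lrrn2*, *Chl1*, *L1cam*) and 6 lower (*Nrxn3*, *Cntn1*, *Slitrk2*, *Slitrk3*, *Lrrtm1*, *Flrt3*), and 27 were not called. That is 25% of the adhesion genes tested, and 6.33% of all genes tested were called, 3.65% higher and 2.67% lower. The median log2 fold change of the 36 was -0.04, and that of all genes 0.01. The summed RPKM of the 57 was 637 and 664 in GFP/+ and 638 and 654 in GFP/GFP, so the total did not separate the genotypes while single members moved in both directions.

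**Figure D1:**
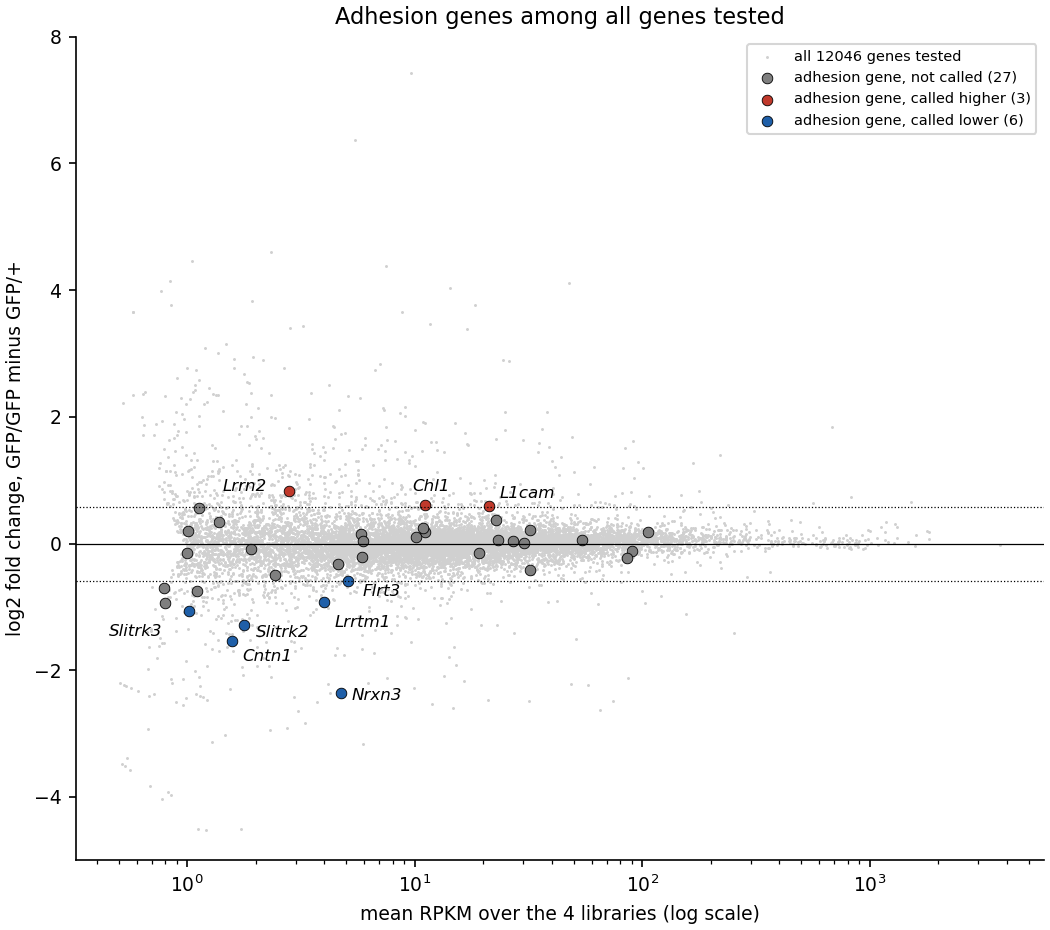
Log2 fold change (GFP/GFP minus GFP/+, y axis) against mean RPKM over the 4 libraries (x axis, log scale) for the 12046 genes tested (grey) and the 36 adhesion genes tested (circles, coloured by call); dotted lines mark a fold of 1.5. *Nrxn3* at -2.36 lies farthest from 0 of the adhesion genes, and 2 of the 9 called genes have a mean RPKM of at least 10.

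Most of the calls were among members of low level, a split that was not tested. Of the 16 members with a mean of at least 10 RPKM over all libraries 2 were called (*L1cam* and *Chl1*), and the other 7 calls were among the 20 tested members under 10 RPKM. By superfamily, the Ig families had 2 genes called higher and 1 lower of 14 tested, the LRR families 1 higher and 4 lower of 16, and the neurexins, neuroligins and contactin-associated proteins 0 higher and 1 lower of 6 (limma, with 0 higher at an unadjusted p under 0.05). These counts by class were not tested against each other. With the adjusted p alone and no fold, 5 were higher and 10 lower (41.7%), against 19.7% of all genes (9.76% higher and 9.95% lower). The libraries of the genotypes did not overlap for 27 of the 36 (75.0%), 10 with GFP/GFP above and 17 with GFP/GFP below, and for 62.1% of all genes.

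**Figure D2:**
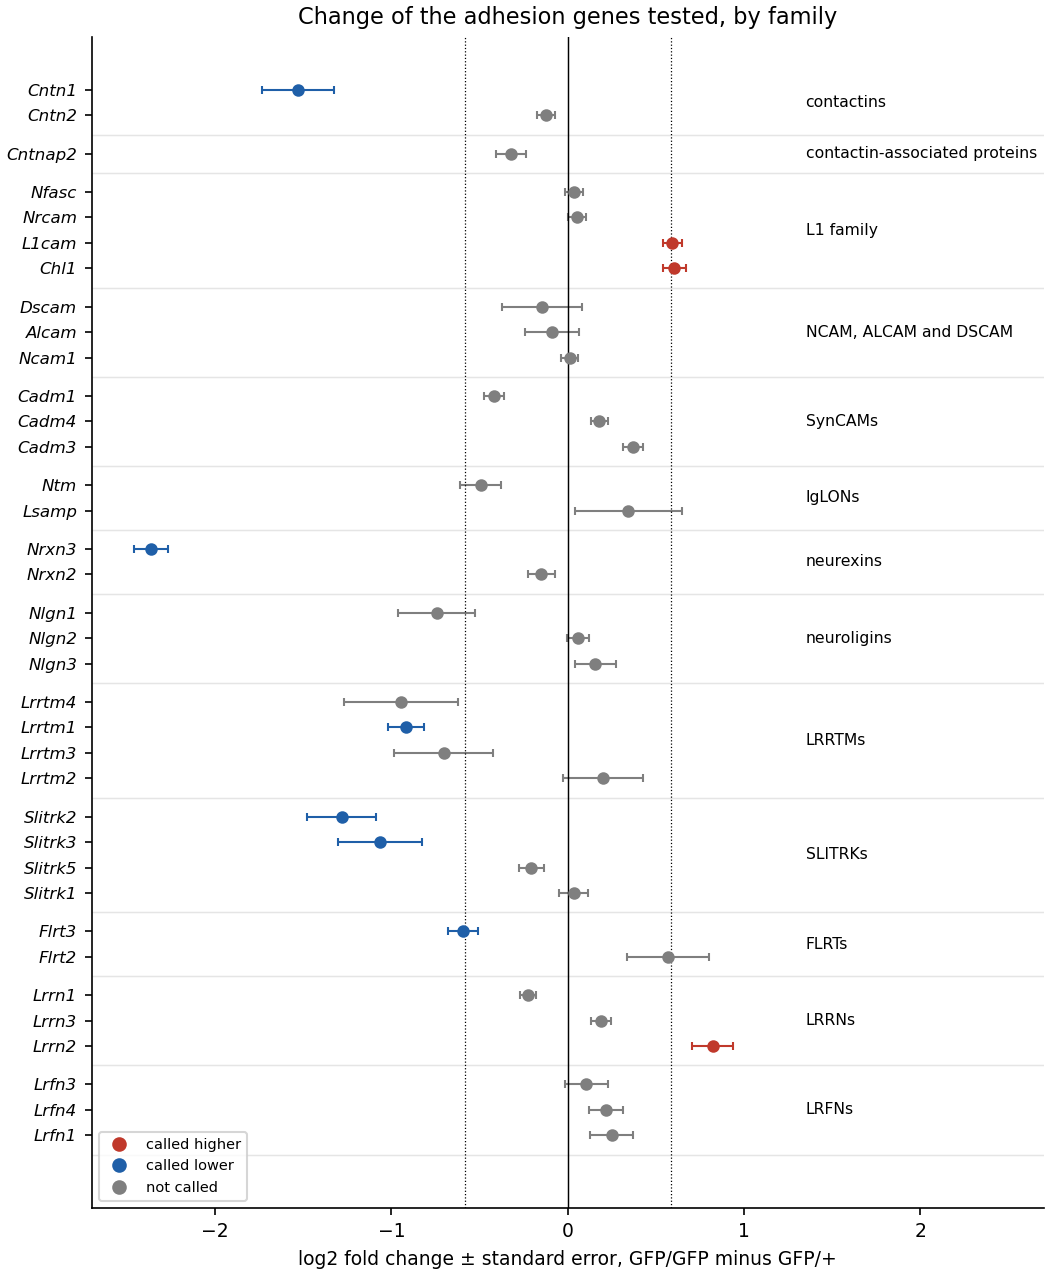
Log2 fold change (GFP/GFP minus GFP/+, x axis) with its standard error (bars) for the 36 adhesion genes tested, grouped by family; dotted lines mark a fold of 1.5. The genes span -2.36 (*Nrxn3*) to 0.82 (*Lrrn2*), 3 of the 4 LRRTMs and 3 of the 4 SLITRKs tested lie below 0, and the 4 genes of the L1 family lie above it.

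*Nrxn3*, which encodes a neurexin, had the largest change of the 36 adhesion genes tested. It was at 7.93 and 8.11 RPKM in the GFP/+ libraries and at 1.52 and 1.44 in the GFP/GFP libraries. The groups lay far apart: 8.02 ± 0.124 fell to 1.48 ± 0.0549 RPKM (SD, n = 2 libraries), 5.42-fold lower, with a log2 fold change of -2.36 (SE 0.09, limma adjusted p = 2.71e-05). The call rested on 867 and 1403 reads against 233 and 186. *Nrxn2*, another neurexin, with a higher level, was at 18.9 and 21.6 against 17.8 and 18.7 RPKM and was not called (log2 -0.15, 95% confidence interval -0.33 to 0.04).

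*Nrxn3* lies on chromosome 12 (RefSeq on GRCm38, 88722701 to 90334935) and spans 1612 kb. Long and short neurexins start at separate promoters, and an RPKM per gene does not separate them. The RefSeq promoter windows (250 bases before to 50 after a start, build GRCm38.p6) are shown for *Nrxn3*, the called gene with the largest fall, and for *Lrrn2*, the one with the largest rise among the called genes described. Capitals mark the E-box CANNTG, the letters bound by basic helix-loop-helix proteins such as PTF1A of the dorsal neural tube. All are on the + strand.
Nrxn3, chr12:88794254-88794553: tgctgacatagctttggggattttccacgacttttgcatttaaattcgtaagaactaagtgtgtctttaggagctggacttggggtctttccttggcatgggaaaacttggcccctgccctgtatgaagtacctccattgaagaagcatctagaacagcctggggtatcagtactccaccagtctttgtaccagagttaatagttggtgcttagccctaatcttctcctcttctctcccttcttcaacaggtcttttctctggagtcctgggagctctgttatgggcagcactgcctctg
Nrxn3, chr12:88953140-88953439: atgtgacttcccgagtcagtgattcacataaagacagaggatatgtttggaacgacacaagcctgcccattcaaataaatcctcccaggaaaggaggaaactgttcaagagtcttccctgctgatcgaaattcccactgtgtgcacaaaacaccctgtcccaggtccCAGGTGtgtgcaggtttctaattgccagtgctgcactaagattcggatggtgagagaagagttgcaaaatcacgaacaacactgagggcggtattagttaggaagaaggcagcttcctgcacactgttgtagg
Nrxn3, chr12:89812233-89812532: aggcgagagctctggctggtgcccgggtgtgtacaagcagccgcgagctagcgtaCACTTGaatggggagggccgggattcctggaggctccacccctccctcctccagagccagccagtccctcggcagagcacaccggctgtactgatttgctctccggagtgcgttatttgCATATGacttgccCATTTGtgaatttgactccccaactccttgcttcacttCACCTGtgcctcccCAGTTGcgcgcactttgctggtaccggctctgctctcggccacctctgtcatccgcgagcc
Lrrn2, chr1:132880105-132880404: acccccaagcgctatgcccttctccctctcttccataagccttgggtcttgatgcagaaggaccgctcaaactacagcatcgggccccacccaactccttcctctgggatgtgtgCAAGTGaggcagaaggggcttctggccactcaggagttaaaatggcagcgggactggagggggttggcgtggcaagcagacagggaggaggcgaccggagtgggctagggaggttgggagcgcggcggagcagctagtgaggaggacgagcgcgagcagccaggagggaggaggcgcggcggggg
The *Nrxn3* windows held 0, 1 and 5 E-boxes and the *Lrrn2* window 1. None of the *Nrxn3* windows covers the 5' end of the gene at 88722701, so these counts leave out a promoter there. CANNTG reads the same on both strands, and 72.3% of all 32851 windows held at least 1. Windows were matched for 42 of the 57 adhesion genes (56 windows), and 41 of these (73.2%) held the motif: 3 of 4 windows of genes called higher and 7 of 11 of genes called lower. The narrower CAGCTG, which is contained in CANNTG, was in 17.9% of the adhesion windows, in 0 of 4 and 0 of 11 of those of called genes, and in 16.3% of all windows.

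Of the 7 LRRTMs and neuroligins, postsynaptic partners of the neurexins, 1 was called. *Lrrtm1*, an LRR protein that binds neurexins, was at 5.38 and 5.15 RPKM in GFP/+ and at 2.56 and 2.93 in GFP/GFP, with no overlap. It fell 1.92-fold (log2 -0.92, SE 0.10, limma adjusted p = 0.00213). *Lrrtm3* (1.05 and 0.949 against 0.623 and 0.531 RPKM) and *Lrrtm4* (1.24 and 0.919 against 0.417 and 0.616) had GFP/GFP below GFP/+ with folds over 1.5 but were not called (limma adjusted p = 0.130 and 0.0914). *Lrrtm2* had the opposite sign (0.991 and 0.876 against 1.13 and 1.04 RPKM, log2 0.20, SE 0.22). The summed RPKM of the LRRTMs was 8.67 and 7.90 in GFP/+ and 4.73 and 5.12 in GFP/GFP, most of it *Lrrtm1*.

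None of the 3 neuroligins was called by limma, and 1 of them had an unadjusted p under 0.05. That was *Nlgn1*, found mostly at excitatory synapses, at 1.34 and 1.47 RPKM in GFP/+ and 0.867 and 0.735 in GFP/GFP (log2 -0.74, SE 0.22, limma adjusted p = 0.06). *Nlgn2*, a neuroligin of inhibitory synapses, was the highest at 50.8 and 56.1 against 54.6 and 56.6 RPKM, and its libraries overlapped (log2 0.06, 95% confidence interval -0.09 to 0.20). *Nlgn1*, *Lrrtm3* and *Lrrtm4* had 28 to 306 reads a library, and all 3 were called lower by limma voom on the recovered reads, which weights a gene by its depth.

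The SLITRKs, which pair with receptor phosphatases, gave 2 further calls. *Slitrk2* was at 2.66 and 2.44 RPKM in GFP/+ and 1.16 and 0.838 in GFP/GFP. It fell 2.55-fold (log2 -1.28, SE 0.20, limma adjusted p = 0.00688) and the groups did not overlap. *Slitrk3*, known for inhibitory synapses, was at 1.53 and 1.29 against 0.610 and 0.627 RPKM and fell 2.28-fold (log2 -1.06, SE 0.24, limma adjusted p = 0.0255). *Slitrk3* rested on 32 to 88 reads a library, and its call was lost without GFP/+ library 1, without GFP/GFP library 1 or without GFP/GFP library 2 (log2 -0.95, -1.05 and -1.08). The SLITRKs with the highest levels were not called: *Slitrk5* was at 6.18 and 6.35 against 5.45 and 5.38 RPKM and *Slitrk1* at 5.92 and 5.78 against 5.69 and 6.31.

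Of the FLRTs, *Flrt3*, a ligand of latrophilins and of UNC5 receptors, was at 6.323 and 6.002 RPKM in GFP/+ and 4.19 and 3.92 in GFP/GFP. It fell 1.52-fold (log2 -0.59, SE 0.08, limma adjusted p = 0.00496), just past the fold required, and the call was lost without GFP/+ library 1 or GFP/GFP library 2 (log2 -0.56 and -0.55). *Flrt2* had the opposite sign at 0.755 and 1.02 against 1.38 and 1.33 RPKM and was not called (log2 0.57, SE 0.23, limma adjusted p = 0.140). *Flrt2* was named after its values were seen.

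Among the other LRR genes, *Lrrn2* was at 2.01 and 1.99 RPKM in GFP/+ and at 3.40 and 3.85 in GFP/GFP, and rose 1.81-fold (log2 0.82, SE 0.12, limma adjusted p = 0.0054). The call was lost without GFP/GFP library 2 (log2 0.74). *Lrrn1*, the most abundant LRRN, went the other way at 93.1 and 92.0 against 81.3 and 77.1 RPKM, a difference that passed the adjusted p (limma, 0.021) but not the fold. The LRFNs, also called SALMs, were led by *Lrfn4* (27.7 and 31.6 against 31.7 and 37.3 RPKM) and none of the 3 tested was called by limma (0 with an unadjusted p under 0.05).

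Among the Ig families, the L1 family held both genes called higher. *L1cam*, an axon growth and guidance receptor, was at 16.4 and 17.5 RPKM in GFP/+ and at 25.9 and 25.4 in GFP/GFP. It rose 1.51-fold (log2 0.59, SE 0.06, limma adjusted p = 0.0011). *Chl1*, its close homologue, was at 8.92 and 8.57 against 13.7 and 13.0 RPKM and rose 1.53-fold (log2 0.61, SE 0.06, limma adjusted p = 0.00162). Both lay well clear of the spread between libraries and close to the fold of 1.5, so the call of *L1cam* was lost without GFP/+ library 1 or GFP/GFP library 1 (log2 0.551 and 0.581) and that of *Chl1* without GFP/+ library 2 or GFP/GFP library 1 (log2 0.577 and 0.566), each then under a fold of 1.5. The other L1 genes, *Nfasc* (26.1 and 27.1 against 27.5 and 27.1 RPKM) and *Nrcam* (22.3 and 23.2 against 23.5 and 23.7), were not called. The summed RPKM of the family was 73.8 and 76.3 in GFP/+ and 90.6 and 89.2 in GFP/GFP.

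*L1cam* and *Slitrk2* are on the X chromosome, as is *Gpc4*, a called gene described below, and the pools differed in sex-linked transcripts. *Xist*, expressed in female cells, was at 22.4 and 21.6 RPKM in GFP/+ and 6.55 and 6.03 in GFP/GFP, and the Y-linked *Eif2s3y* was at 19.1 and 17.8 against 27.8 and 28.1. *Kdm5d*, *Uty* and *Ddx3y*, also on the Y chromosome, were higher in both GFP/GFP libraries than in both GFP/+ libraries. These genes were chosen after their values were seen, and their part in the results on *L1cam*, *Slitrk2* and *Gpc4* was not tested. In the GENCODE annotation *L1cam* shares exon sequence with *Arhgap4* on the same strand. In the RefSeq coordinates the 2 genes do not overlap: *L1cam* ends at 73880838 and *Arhgap4* starts at 73894352. The RPKM of *Arhgap4* was 1.41 and 1.38 against 1.96 and 2.20. *Cadm3* shares exon sequence with *Ackr1*, and *Nlgn3* with *Gm21986*, also on the same strand. Genes annotated on the opposite strand overlap exons of *Nrxn2*, *Nrxn3*, *Nlgn1*, *Lrrtm2*, *Lrrtm4*, *Ncam1*, *Dscam* and *Cadm2*. Such genes also overlap exons of *Cntn5*, *Cntnap1*, *Cntnap4*, *Dscaml1* and *Lrfn2*, which were under the filter. All these overlaps are of GENCODE exons, while the authors counted reads on RefSeq genes. Some of the overlapping genes, such as *Gm21986* at *Nlgn3* and *Gm37980* at *Nrxn3*, are not among the genes listed. The use of strand in counting is not given in the sources used here. Whether reads of such pairs were mixed was not tested.

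*Cntn1*, a GPI-anchored contactin, was at 2.22 and 2.55 RPKM in GFP/+ and at 0.865 and 0.662 in GFP/GFP. It fell 3.12-fold (log2 -1.53, SE 0.20, limma adjusted p = 0.00417), after *Nrxn3* the largest fall. *Cntn2*, a contactin of commissural axons, made up 96.6 to 98.8% of the summed contactin RPKM and was not called (91.8 and 97.0 against 84.9 and 88.7 RPKM, log2 -0.12, 95% confidence interval -0.24 to 0.00). *Cntn3* to *Cntn6* were under the filter. Of the contactin-associated proteins only *Cntnap2* was tested, at 5.11 and 5.16 against 3.96 and 4.22 RPKM, past the adjusted p (limma, 0.0408) but not the fold.

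**Figure D3:**
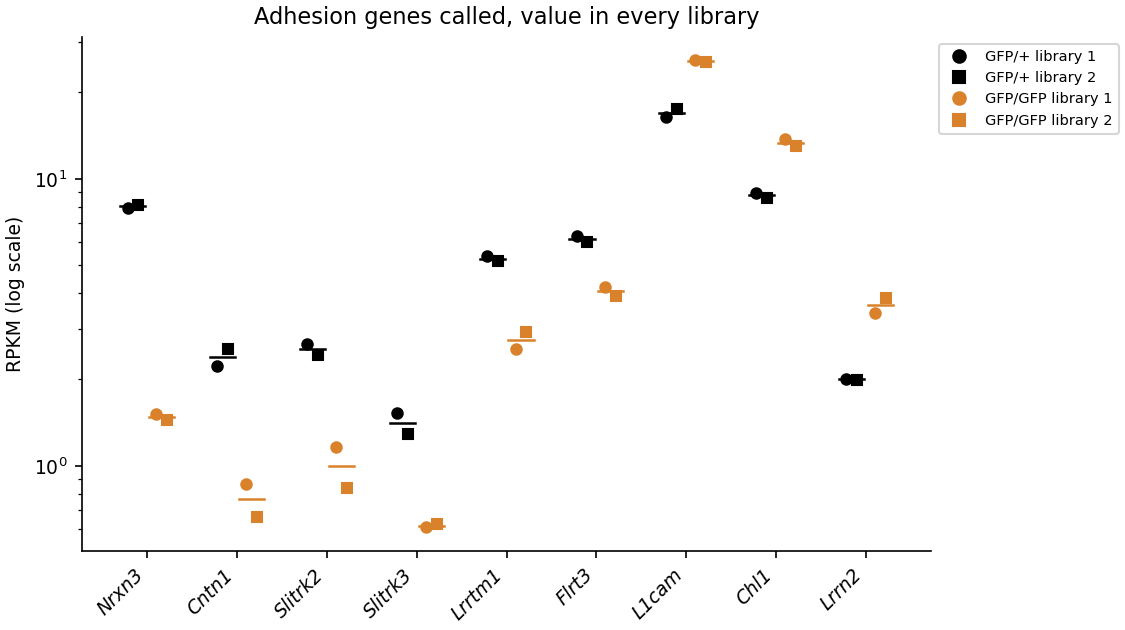
RPKM (y axis, log scale) of the 9 called adhesion genes in each library, black for GFP/+ and orange for GFP/GFP, circles for library 1 and squares for library 2, with a line at each mean. Genes run from the largest fall (*Nrxn3*, 8.02 to 1.48 RPKM) to the largest rise (*Lrrn2*, 2.00 to 3.62), and no gene's genotypes overlap.

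The SynCAMs, homophilic and heterophilic adhesion molecules of axons and synapses, were the most abundant family, and their members diverged without a call. *Cadm4*, the highest, was at 97.4 and 101.5 RPKM in GFP/+ and at 109.8 and 115.5 in GFP/GFP. *Cadm3* was at 19.1 and 20.5 against 25.26 and 25.98, and *Cadm1* at 38.1 and 35.6 against 28.1 and 26.9. All 3 passed the adjusted p (limma, 0.0473, 0.00739 and 0.00461) under the fold of 1.5, the first and the second higher and the third lower. *Ncam1*, a homophilic adhesion molecule of most neurons, was level at 30.0 and 30.5 against 30.5 and 30.4 RPKM (log2 0.01, 95% confidence interval -0.10 to 0.13). *Alcam* and *Dscam* were not called either.

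Of the IgLONs, GPI-anchored proteins of neurites, *Ntm* was at 2.82 and 2.93 RPKM in GFP/+ and at 2.04 and 1.98 in GFP/GFP (log2 -0.49, SE 0.12, limma adjusted p = 0.0309), under the fold required. *Opcml*, its neighbour on chromosome 9 at a distance of 69.3 kb, was below the filter at 0.606 and 0.519 against 0.226 and 0.268 RPKM. *Lsamp* was at 0.841 and 1.64 RPKM in the GFP/+ libraries, a wider spread than its difference between genotypes.

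Of the 21 members under the filter, 9 had at least 20 reads in a library and 12 had fewer. Limma voom on genes with at least 20 reads called 2 of the 9 lower and 0 higher (0 at an unadjusted p under 0.05), where it called 3.37% of all genes lower and 4.06% higher (7.43% in all). *Cadm2* had 92 and 121 reads in GFP/+ and 70 and 44 in GFP/GFP (0.831 and 0.690 against 0.450 and 0.336 RPKM; voom log2 -0.91, adjusted p = 0.00148). *Opcml* had 42 and 57 against 22 and 22 reads (voom log2 -1.15, adjusted p = 0.00297). *Cntnap3*, *Cntnap5b* and *Lrrn4* had at most 3 reads in every library, the limit of detection, which covers counting error only.

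Several members are neighbours in the genome. *Cntn2*, *Nfasc* and *Lrrn2* lie within 132509425 to 132940005 of chromosome 1, with gaps of 21.4 and 138.5 kb, and of these *Lrrn2* was called. On chromosome 6, *Chl1* (103510584 to 103733038) lies between *Cntn3* and *Cntn6*, with *Cntn4* and *Lrrn1* beyond, and it was the called gene of that row. The called genes do not form a run of neighbours on either chromosome.

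Genes for the proteins that these adhesion molecules bind, or that belong to related families, were listed from general knowledge. Earlier results of these data were known when the list was made. It holds 103 genes, of which 76 were tested. In GFP/GFP cells 9 were called higher and 6 lower (19.7%, against 6.33% of all genes tested). The authors had already reported *Cbln1*, *Cbln2*, *Kirrel2* and *Nphs1* as higher in the mutants from the same libraries. The share called is therefore not independent of these data. Of the 19 tested genes that act with neurexins and neuroligins, 3 were called higher and 2 lower.

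Secreted ligands of the neurexins moved in both directions. *Cbln1*, a cerebellin that links neurexins to delta glutamate receptors, was at 8.10 and 7.15 RPKM in GFP/+ and at 25.1 and 26.5 in GFP/GFP. It rose 3.38-fold (log2 1.75, SE 0.08, limma adjusted p = 3.63e-05). *Cbln2*, of the same family, rose from 0.870 and 0.895 to 3.10 and 3.11 RPKM (3.51-fold). *Nxph1*, a neurexophilin that binds the long neurexins, went from 2.76 and 2.88 to 0.621 and 0.697 RPKM and fell 4.28-fold (log2 -1.95, SE 0.18, limma adjusted p = 0.000869). The groups did not overlap for *Cbln1*, *Cbln2* or *Nxph1*. *Nxph4*, the most abundant of the neurexophilins and cerebellins listed, was at 76.8 and 83.7 against 64.6 and 66.0 RPKM. It was lower by the adjusted p (limma, 0.014) but not past the fold. *Cbln4* was not called (1.05 and 0.955 against 1.12 and 1.33 RPKM).

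Membrane partners also differed. *Clstn2*, a calsyntenin, fell from 3.28 and 3.47 to 1.09 and 1.07 RPKM (3.12-fold), and *Gpc4*, a glypican that can bind LRRTM4, rose from 12 and 11.6 to 22.5 and 23.6 (1.95-fold). *Ptprd*, the receptor phosphatase that binds SLITRK3 among others, was at 14.81 and 14.02 against 6.49 and 6.07 RPKM. It fell 2.29-fold (log2 -1.19, SE 0.07, limma adjusted p = 0.000128), and *Ptprs* and *Ptprf*, the related phosphatases, were not called (118 and 130 against 126 and 135 RPKM, and 57.3 and 62.4 against 61.8 and 67.4). *Unc5a*, a netrin receptor of the family that binds FLRTs, fell from 4.35 and 4.41 to 2.11 and 2.81 RPKM.

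Of the other Ig and LRR genes listed, *Kirrel2* rose from 94.7 and 99.9 to 229 and 244 RPKM and *Nphs1* from 24.2 and 24.9 to 62.9 and 64.1. They encode interacting Ig proteins and are neighbours on chromosome 7 (30447766 to 30457515 and 30458207 to 30488623). *Elfn1*, an LRR protein, rose from 2.50 and 3.16 to 6.22 and 6.79 RPKM. *Lrrc4c*, the netrin-G1 ligand, fell from 1.48 and 1.71 to 0.811 and 0.696, and *Bcam* fell from 0.933 and 1.09 to 0.281 and 0.364 on 11 to 48 reads a library. The genotypes of all the partner genes named as called here did not overlap.

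**Figure D4:**
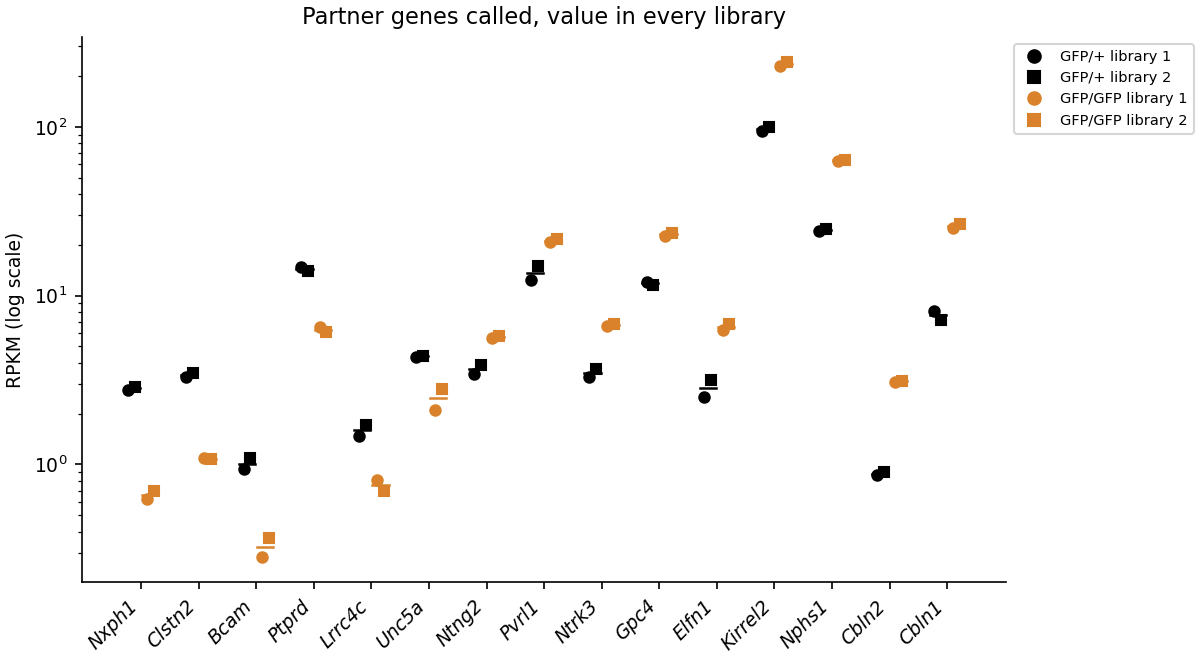
RPKM (y axis, log scale) of the 15 called partner genes in each library, black for GFP/+ and orange for GFP/GFP, circles for library 1 and squares for library 2, with a line at each mean, ordered from the largest fall to the largest rise. *Nxph1* falls from 2.82 to 0.659 RPKM and *Cbln1* rises from 7.63 to 25.8.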

How the data were processed

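RPKM for 24421 genes in 4 libraries were used as deposited. The authors aligned reads to mm10 with TopHat2 2.1.0, counted exon reads on RefSeq genes with featureCounts and normalized with TMM in edgeR 3.6.8 (tools partly per the labels). Samples were grouped by the labelled genotype. Whole reads were recovered from the RPKM steps for 18783 of 19200 genes above 0 (97.8%, tolerance 0.002 of a read). Genes were compared on log2(RPKM + 0.1) with limma 3.58.1 (lmFit, eBayes with a trend, two-sided, R 4.3.3), with a filter at a mean RPKM of 1 in either genotype. The plots were drawn with matplotlib 3.10.9. The median absolute log2 difference between a genotype's libraries was 0.078 in each, and their counts differed by more than sampling noise. Coordinates and promoters are RefSeq on GRCm38.p6, and exon overlaps between genes are from GENCODE. Members, lists and rules were chosen with earlier results of these data known. The genes named are every called member, members with an uncalled fold of 1.5, the highest member of each family, up to 6 called partners in each direction, and 5 checks; others carrying an adjusted p under 0.05 or a neighbour's role were added. Alternatives comprised pseudocounts of 1 and 0.01, other filters and scalings, other tests, leaving out each library and a replicate block. ChIP-seq was not used here. Results of some genes of the family names and marker lists are not reported here, and these genes were left out of the counts, medians and sums over lists.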

Additional observations from a re-analysis of the deposited data

How the results depend on the processing

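Of the 9 adhesion genes called, *Nrxn3* was called under each of the 17 alternatives, and *Cntn1*, *Slitrk2* and *Lrrtm1* under all but 2. With no filter on RPKM, and with limma's treat test against a fold of 1.5, *Nrxn3* alone was called, so the adhesion counts became 0 higher and 1 lower in both (6 and 14 members had an unadjusted p under 0.05 in the first, and 1 was higher at that level in the second) and the partner counts 1 higher and 0 lower (25 lower at an unadjusted p under 0.05), and 5 and 3. Over all genes these settings called 30 higher and 14 lower, and 131 and 77, where limma as reported called 440 and 322, the adjusted p alone 1176 and 1199, voom 442 and 351, and the fits without a library 258 to 437 and 212 to 266. A pseudocount of 1 gave 1 adhesion gene called higher and 4 lower, with *Chl1*, *L1cam*, *Flrt3* and *Slitrk3* no longer called, and quantile normalization lost *Flrt3*. Without the fold, 5 adhesion genes were higher and 10 lower, and 19 partner genes higher and 15 lower. Voom on genes with at least 20 reads, chosen after seeing the data, gave 11 adhesion and 10 partner genes lower and a median log2 fold change of -0.12, over 45 members in place of 36. Leaving out each library in turn gave 1 to 2 adhesion genes higher and 4 to 6 lower, a median of -0.06 to 0.02, fewest higher without GFP/GFP library 1, and 7 to 10 partner genes higher and 3 to 4 lower, fewest lower without GFP/+ library 1. A lone library is then assumed to vary like the others. Of the 23 adhesion genes recomputed one by one under the alternatives, signs turned for 3 uncalled genes near 0: *Ncam1* with quantile normalization (-0.011), *Nlgn2* without GFP/+ library 1 (-0.013, and 0.129 at most without another) and *Slitrk1* without GFP/GFP library 2 (-0.039, and 0.109 at most). The replicate numbers did not pair the libraries (correlation of deviations 0.0475), and the replicate block gave 3 and 6 adhesion and 9 and 6 partner genes, with no adhesion call changed. The cause of these differences between settings was not tested. Precision is limited by 1 pool per genotype and, for members under about 1 RPKM, by read number.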
